A study of Homo sapiens with 9 samples.

Results

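Accessible chromatin was described at 31 genes of the apoptosis machinery, out of 19974 protein-coding genes of the RefSeq annotation of GRCh38. The genes were listed by name, with p53 targets left out, at a time when earlier results of these data were known; all 31 were found. Each gene's locus was the gene with 5 kb on both sides. ATAC-seq, which maps open DNA by where a transposase can insert adapters, was run on SK-N-MC, an established Ewing sarcoma cell line driven by the EWSR1::FLI1 fusion. Cells labelled CHD4 knockdown carried the doxycycline-inducible hairpin shCHD4#1 or shCHD4#2 against CHD4, a nucleosome-moving enzyme and core subunit of the repressive complex NuRD. Cells labelled wildtype carried the inducible hairpin shScramble. All 3 groups had 100 ng/ml doxycycline for 48 h, and each had 3 biological replicates, which made 9 samples of this line alone.

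The data were 3 deposited lists of accessible regions, 1 per group and each filed under replicate 1 of its group. They held 122869 regions with shCHD4#1, 83241 with shCHD4#2 and 85775 with shScramble on chromosomes 1 to 22 and X. A single list per group gives no replicate error, so no difference below was tested. Both hairpins are set against the same shScramble list, so their differences from it are not independent of each other. Read depth was unknown, and a longer list holds more regions at any gene. An end of all 10 marker genes of the tumour was covered in every list, against 6 of 9 marker genes of other cell types with shCHD4#1, 5 with shCHD4#2 and 6 with shScramble. Of the latter, CD3E, EPCAM and MYOD1 were covered in every list. Over all genes the shares were 73.0% with shCHD4#1, 68.4% with shCHD4#2 and 64.8% with shScramble. A listed region shows open DNA, not expression, and does not show how far CHD4 was silenced.

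Apoptosis runs along a mitochondrial and a death receptor route. In the mitochondrial route, BH3-only proteins sense damage and block the survival members of the BCL2 family, so that BAK1 and its relatives can open the outer mitochondrial membrane. Cytochrome c then assembles with APAF1 into the apoptosome, which activates caspase 9, while other released proteins relieve the block that inhibitor of apoptosis proteins place on caspases. In the receptor route, TRAIL or FAS ligand gathers FADD and caspase 8 at the cell surface.

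With either hairpin, more of the apoptosis loci held extra regions than held fewer, compared with shScramble. With shCHD4#1, 19 of 31 genes (61.3%, 95% Wilson interval 43.8 to 76.3) had more regions than with shScramble, beside 51.2% of all genes. With shCHD4#2 the number was 16 (51.6%, 34.8 to 68.0), beside 30.7% of all genes. Fewer regions than in the shScramble list were found at 4 genes with shCHD4#1, beside 17.3% of all genes. With shCHD4#2 there were 9 such genes, beside 32.9% of all genes. The intervals cover counting error only and treat genes as independent.

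Counted over both hairpins, 14 genes (45.2%, 29.2 to 62.2) had more regions with each, beside 25.2% of all genes. Of the 31 genes, only BID and CFLAR had fewer regions with each (6.45%, 1.79 to 20.7), beside 13.0% of all genes. A region in any list was present at 29 of the 31 genes, and among all genes with a region in any list 27.9% had more with each hairpin and 14.4% fewer. Of the 15 genes in neither class, BCL2A1, TNFSF10, CASP10 and BIRC6 had the same number in every list, 6 equalled shScramble with 1 hairpin, and 5 lay on opposite sides of it. The median log2 ratio of region number over shScramble, with 1 added to both numbers, was 0.32 with shCHD4#1 and 0.19 with shCHD4#2. Over all genes these medians were 0.17 with shCHD4#1 and 0 with shCHD4#2. On the same scale 5 of the 31 genes were at least 1.5-fold higher with both hairpins (BAD, CASP8, BIRC5, TNFRSF10A and FADD), which is near the 13.1% of all genes. Some of these ratios rest on very few regions: BIRC5 and TNFRSF10A had 0 with shScramble and at most 2 with a hairpin. FADD had 1 with shScramble and 2 with each hairpin, and its bases covered were 1680 with shCHD4#1, 2270 with shCHD4#2 and 1960 with shScramble. None of the 31 was 1.5-fold lower with both, beside 5.11% of all genes.

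The number of genes with more regions depended on how regions were counted. Many listed regions touch each other, so that a continuous open stretch can be listed as 1 region or as several. With regions less than 100 bp apart joined, 8 genes had more with both hairpins (25.8%), beside 22% of all genes. When only the best regions of each list were taken, as many as in the shortest list, 10 genes did (32.3%), beside 18.0% of all genes. With regions at an authors' p of at most 0.05 the number was 5 (16.1%), beside 10.4% of all genes. These were BAD, BCL2, BMF, ENDOG and MCL1, of which BMF, ENDOG and MCL1 are not among the 14. By bases covered, 11 genes had more with both hairpins (35.5%), beside 27.4% of all genes. Of the 14, BCL2, BCL2L1, BCL2L2, BIK and FADD did not have more by bases.

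**Figure D1:**
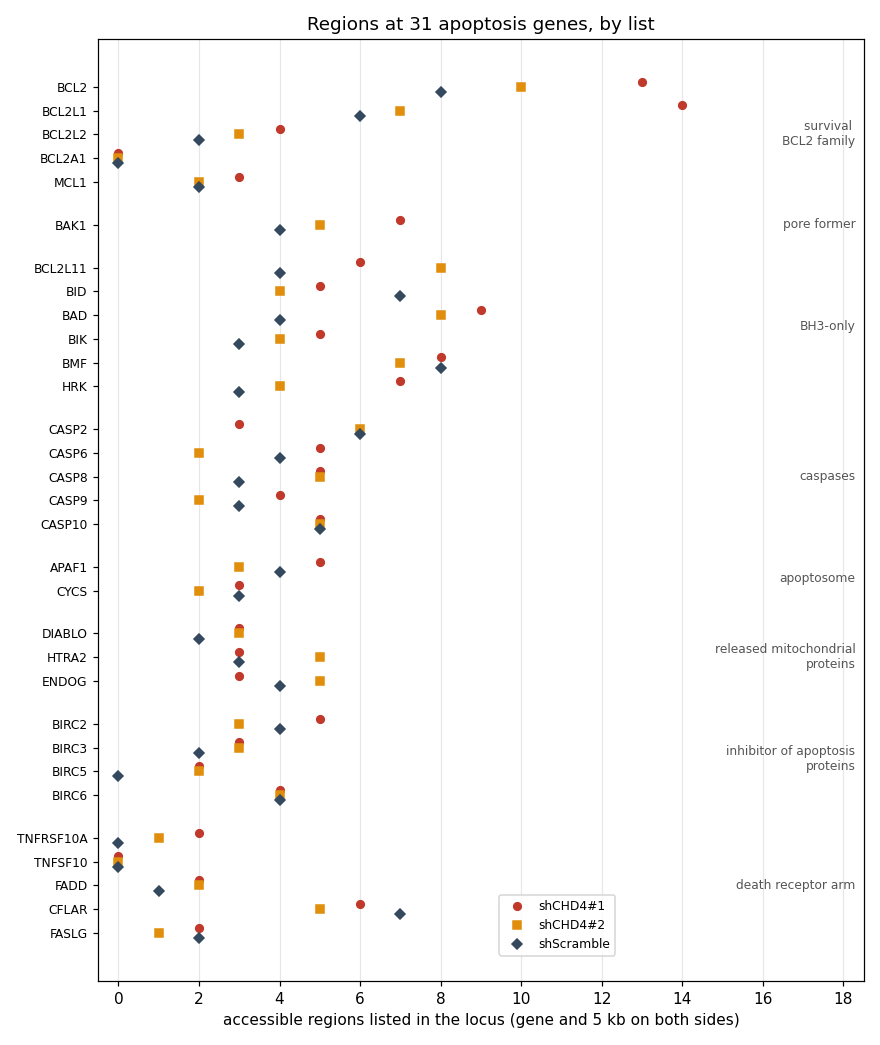
Number of accessible regions listed in the locus of each of the 31 genes (horizontal axis), with genes grouped by role on the vertical axis and 1 symbol per list. The red and orange symbols of shCHD4#1 and shCHD4#2 lie to the right of the dark shScramble symbol at 14 genes and to its left at BID and CFLAR.

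**Figure D2:**
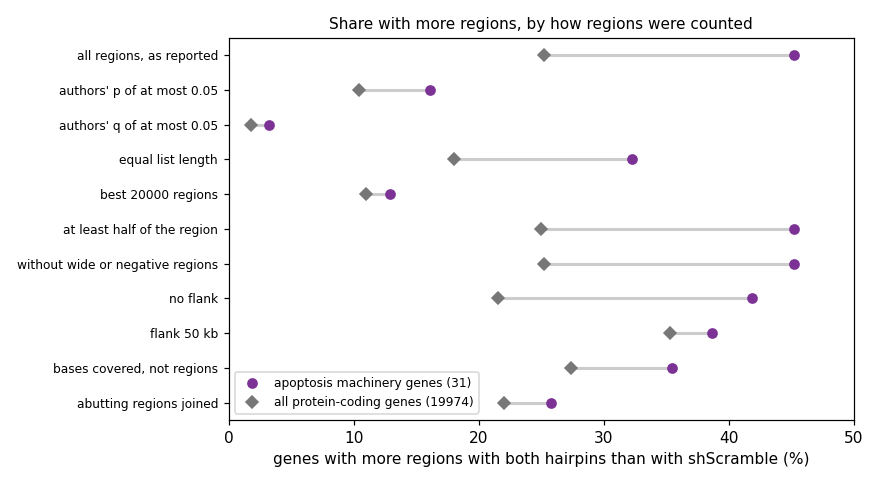
Share of genes for which both hairpin lists exceeded shScramble in region number (horizontal axis, percent) under each way of counting regions (vertical axis), for the 31 apoptosis genes and all 19974 protein-coding genes. The apoptosis genes had the higher share under each of the 11 ways shown, but these recount the same lists and are not independent. The shares were 45.2% beside 25.2% as reported and 38.7% beside 35.3% with a flank of 50 kb. With an authors' q of at most 0.05 they were 3.23%, which is 1 gene, beside 1.79%. None of these differences was tested.

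At promoters, BCL2L11, FADD and BIRC3 had a window overlapped by a region with both hairpins and no window at any of their starts overlapped by a shScramble region. All of these regions had an authors' p above 0.05. With shCHD4#1 it was 0.534 at BCL2L11, 0.237 at FADD and 0.0746 at BIRC3, and with shCHD4#2 0.183, 0.358 and 0.372 in the same order. The promoter here is the window from 250 bases before to 50 bases after a start in the RefSeq table (build GRCh38.p14), which holds at least 1 start of 25 of the 31 genes. The windows of 14 of these 25 genes were covered in all 3 lists, beside 44.1% of 15812 protein-coding genes. Taken over all starts of a gene, the 3 genes covered with both hairpins only make 12% of the 25, beside 8.82% of those genes, and 0 were covered with shScramble only, beside 1.98%. DIABLO also had 1 window covered with both hairpins only, but others of its starts were covered with shScramble. The 3 windows are printed 5′ to 3′ on the gene's strand, since they are the only listed starts of these 3 genes and overlap regions of both hairpins alone. Capitals mark matches to any of 9 motifs searched on both strands.
BCL2L11 (chr2:111120664-111120963, plus strand): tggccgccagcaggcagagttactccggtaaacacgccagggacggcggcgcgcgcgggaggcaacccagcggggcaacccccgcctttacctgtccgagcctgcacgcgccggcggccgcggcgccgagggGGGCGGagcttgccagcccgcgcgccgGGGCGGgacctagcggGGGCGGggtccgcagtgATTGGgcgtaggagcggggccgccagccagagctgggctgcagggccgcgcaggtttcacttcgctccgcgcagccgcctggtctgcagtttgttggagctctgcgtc
FADD (chr11:70203046-70203345, plus strand): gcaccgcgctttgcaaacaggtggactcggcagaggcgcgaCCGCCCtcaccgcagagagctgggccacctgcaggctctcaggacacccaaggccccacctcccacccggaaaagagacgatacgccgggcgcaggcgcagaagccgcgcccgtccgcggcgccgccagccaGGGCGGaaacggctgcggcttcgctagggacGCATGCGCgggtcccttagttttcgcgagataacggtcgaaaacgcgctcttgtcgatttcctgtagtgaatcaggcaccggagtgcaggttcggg
BIRC3 (chr11:102317234-102317533, plus strand): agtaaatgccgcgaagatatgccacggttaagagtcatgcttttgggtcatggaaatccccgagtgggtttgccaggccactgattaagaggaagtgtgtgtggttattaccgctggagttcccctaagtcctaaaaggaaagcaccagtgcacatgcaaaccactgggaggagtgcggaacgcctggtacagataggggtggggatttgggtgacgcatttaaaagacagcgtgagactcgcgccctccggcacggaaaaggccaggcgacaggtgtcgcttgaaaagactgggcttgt

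GC content was 74.7% at BCL2L11, 66.7% at FADD and 53.3% at BIRC3, and the median was 66.3% over the 45 windows of the 25 genes and 62.3% over 22132 windows of all genes. The BIRC3 window thus lay below both medians and the BCL2L11 window above them. The motifs searched were letters of well-known elements, none of which contains another. GGGCGG is the GC box bound by SP1, ATTGG is the CCAAT box read on the other strand, and TATAAA is the TATA box. GCATGCGC is bound by NRF1 and TGACGTCA is the cyclic AMP response element. TGACTCA is bound by AP-1, and the E-box CACGTG by MYC and its relatives. The last are CCGGAAG, the core of ETS factor sites, and GGAAGGAA, part of the repeats bound by the fusion. BCL2L11 had GGGCGG at -118, -91 and -75 and ATTGG at -58, counted from the first base of the match to the start. FADD had GGGCGG at -77, its reverse complement at -209 and GCATGCGC at -46. None of the 9 motifs occurred in the BIRC3 window. Over all windows, GGGCGG was found in 64.4% for the apoptosis genes and 56.3% for all genes, ATTGG in 28.9% and 34.6%, and GCATGCGC in 8.89% and 3.74%. GGAAGGAA occurred in 0 of the 45 windows and in 3.68% of all windows, and CCGGAAG in 13.3% and 12.8%. For the remaining motifs the shares were 4.44% and 2.26% for TGACGTCA, 8.89% and 9.46% for TATAAA, 4.44% and 4.01% for TGACTCA, and 6.67% and 8.34% for CACGTG. Shares of the 45 windows can rest on few genes. TGACGTCA was found in 2 overlapping windows of BIRC2 alone, TGACTCA in 2 windows of CASP8 alone, and GCATGCGC in 4 windows of BIRC6, CYCS and FADD. A match describes letters in these windows and does not show binding.

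Among the survival members, which hold BAK1 and BAX-type proteins in check, BCL2, BCL2L1 and BCL2L2 had more regions with both hairpins. That is 3 of 5 genes, beside 25.2% of all genes. Bases covered did not follow region number at these 3 genes: compared with shScramble they were higher with shCHD4#1 and lower with shCHD4#2. At BCL2 they were 14090 with shCHD4#1, 9110 with shCHD4#2 and 11515 with shScramble. In the same order they were 21800, 9760 and 10240 at BCL2L1 and 5028, 2618 and 2780 at BCL2L2. At BCL2 (chromosome 18, 63123346 to 63320090), the founding survival protein, 13 regions were listed with shCHD4#1, 10 with shCHD4#2 and 8 with shScramble. A short region just outside the upper end of the gene appeared with both hairpins and not with shScramble, at 63320121 to 63320390 with shCHD4#1 and 63320111 to 63320380 with shCHD4#2. Its authors' p was 0.253 in the shCHD4#1 list and 0.0224 in the shCHD4#2 list, and it lay 352 bp from the RefSeq start with shCHD4#1 and 342 bp with shCHD4#2. The shScramble list had 2 regions at this locus that neither hairpin list overlapped. The RefSeq promoter window was covered with shCHD4#2 and shScramble and not with shCHD4#1. With regions joined BCL2 had 8 in every list.

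BCL2L1, which encodes BCL-XL (chromosome 20, 31664452 to 31723963), had 14 regions with shCHD4#1, 7 with shCHD4#2 and 6 with shScramble. Regions in the body of the gene, near 31691571 and near 31708721, were listed with both hairpins and not with shScramble. Their authors' p was 0.592 and 0.514 with shCHD4#1 and 0.812 and 0.819 with shCHD4#2. BCL2L2, which encodes BCL-W (chromosome 14, 23306833 to 23311751), had 4 regions with shCHD4#1, 3 with shCHD4#2 and 2 with shScramble. With regions joined BCL2L2 had 4 with shCHD4#1, 2 with shCHD4#2 and 2 with shScramble. MCL1, a survival protein with rapid turnover (chromosome 1, 150574558 to 150579610), had 3 regions with shCHD4#1, 2 with shCHD4#2 and 2 with shScramble. Its numbers thus differed little. The best region at a gene end, by rank within each list, had an authors' p of 0.00179 with shCHD4#1, 7.59e-05 with shCHD4#2 and 0.208 with shScramble. A shScramble region of 4330 bp also covered the upper end, at 0.951, a value that recurs in that list. The second deposited score at this end, which has no stated unit, was 1048 with shCHD4#1, 2055 with shCHD4#2 and 1734 with shScramble. Bases covered were 4043 with shCHD4#1, 5440 with shCHD4#2 and 5420 with shScramble. BCL2A1, a survival member of blood cells, had 0 regions in all 3 lists.

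Of the pro-death members, BAK1, which opens the outer mitochondrial membrane, and 4 of 6 BH3-only genes had more regions with both hairpins, beside 25.2% of all genes. With regions joined, only BAD and BIK of these 5 genes did. BAK1 (chromosome 6, 33572552 to 33580276) had 7 regions with shCHD4#1, 5 with shCHD4#2 and 4 with shScramble. Its start was among the best-ranked places here in every list, with an authors' p of 2.35e-05 with shCHD4#1, 0.000138 with shCHD4#2 and 2.65e-05 with shScramble. Regions listed with both hairpins and not with shScramble lay in the gene body, at 33576791 to 33577920 and 33578001 to 33578930 with shCHD4#1 and 33576721 to 33578490 and 33578491 to 33579530 with shCHD4#2. These ranked far lower, with an authors' p of 0.382 and 0.731 with shCHD4#1 and 0.851 and 0.900 with shCHD4#2. The bases covered were 9225 with shCHD4#1, 8706 with shCHD4#2 and 4746 with shScramble, so both hairpin lists covered more of the locus as well.

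BAD, which binds BCL-XL when survival signals cease (chromosome 11, 64269828 to 64284704), had 9 regions with shCHD4#1, 8 with shCHD4#2 and 4 with shScramble. This is a log2 ratio of 1.00 with shCHD4#1 and 0.85 with shCHD4#2. The share of the locus covered was 52.4% with shCHD4#1, 37.3% with shCHD4#2 and 19.7% with shScramble, and with regions joined the numbers were 7 with shCHD4#1, 4 with shCHD4#2 and 2 with shScramble. The genes PLCB3 and GPR137 reach into this locus. The best-ranked region of each list, with an authors' p of 2.49e-05 with shCHD4#1, 6.28e-06 with shCHD4#2 and 1e-05 with shScramble, covered a start of GPR137.

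BCL2L11, which encodes BIM (chromosome 2, 111120914 to 111168445), had 6 regions with shCHD4#1, 8 with shCHD4#2 and 4 with shScramble. Regions at 111120251 to 111120790 with shCHD4#1 and 111120241 to 111120770 with shCHD4#2 reached into the printed window, ending 124 bp before the start with shCHD4#1 and 144 bp with shCHD4#2, and the nearest shScramble region ended 3164 bp before the start. A further region beginning at 111122881, inside the gene, was also listed with both hairpins and not with shScramble. All of these had an authors' p above 0.05, the lowest being 0.103, and at that threshold the locus had 0 regions with either hairpin and 1 with shScramble.

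BIK, a BH3-only protein of the endoplasmic reticulum (chromosome 22, 43110750 to 43129712), had 5 regions with shCHD4#1, 4 with shCHD4#2 and 3 with shScramble. A region over its lower end was listed at 43110131 to 43110810 with shCHD4#1 (authors' p 0.153) and at 43110291 to 43110790 with shCHD4#2 (authors' p 0.327). With shScramble no region lay within 1 kb of an end of BIK; the nearest began 1641 bp inside the gene, at 43112391, and overlapped no region of either hairpin. HRK, a BH3-only protein of neurons (chromosome 12, 116856144 to 116881441), had 7 regions with shCHD4#1, 4 with shCHD4#2 and 3 with shScramble. Its promoter window was covered with shCHD4#1 only, by a region at an authors' p of 0.910. BMF, which binds cytoskeletal motors, had 8 regions with shCHD4#1, 7 with shCHD4#2 and 8 with shScramble, and 71.2% of its locus was covered with shCHD4#1, 57.3% with shCHD4#2 and 56.6% with shScramble.

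BID, which carries the signal of caspase 8 to mitochondria (chromosome 22, 17734138 to 17774665), stood on the other side. It had 5 regions with shCHD4#1, 4 with shCHD4#2 and 7 with shScramble. A region at its upper end, where the RefSeq starts lie, was listed with shCHD4#2 and shScramble and not with shCHD4#1. The shScramble regions at 17730131 to 17730990 (authors' p 0.512) and 17767411 to 17768860 (authors' p 0.860) overlapped no region of either hairpin. The first of these and the shScramble region at 17727881 to 17730130 lay outside BID and overlapped the neighbouring gene BCL2L13. Counted without the 5 kb on both sides, BID was not among the genes with fewer regions with both hairpins. Bases covered did not follow region number at BID: 5845 with shCHD4#1, 7455 with shCHD4#2 and 7288 with shScramble.

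**Figure D3:**
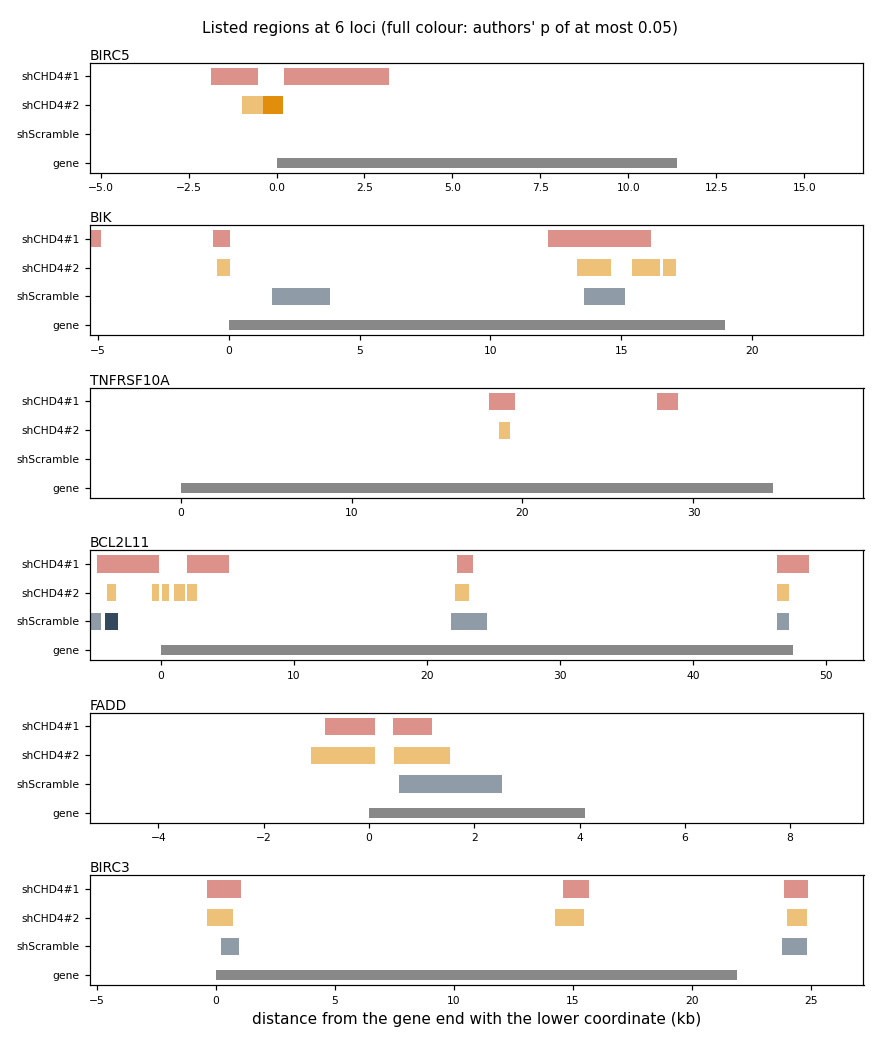
Listed regions (coloured bars) along 6 loci against the distance in kb from the gene end with the lower coordinate, with the gene as a grey bar and regions at an authors' p above 0.05 in pale colour. BIRC5 and TNFRSF10A have no shScramble region, and at FADD and BIRC3 a region covers the start at 0 kb with both hairpins and not with shScramble; at BCL2L11 the region ends 124 bp before it with shCHD4#1 and 144 bp with shCHD4#2.

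Of the caspases, the proteases that cut the cell apart, 1 of 5 had more regions with both hairpins, beside 25.2% of all genes. CASP8, the initiator of the receptor route (chromosome 2, 201233463 to 201287711), had 5 regions with shCHD4#1, 5 with shCHD4#2 and 3 with shScramble, a log2 ratio of 0.58 with each hairpin. A region inside the gene was gained with both, at 201254041 to 201256950 with shCHD4#1 (authors' p 0.471) and 201255811 to 201257450 with shCHD4#2 (authors' p 0.821). CASP10, its neighbour and a second initiator, had 5 regions in each list, of which the shScramble list had 3 that neither hairpin list overlapped. The loci of CASP8 and CASP10 overlap and share 2 regions with shCHD4#1, 1 with shCHD4#2 and 1 with shScramble. The upper end of CASP10 was within 1 kb of a region with shCHD4#1 only, where the stretch shared with CASP8 began at 201227981.

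CASP9, the initiator activated by the apoptosome, had 4 regions with shCHD4#1, 2 with shCHD4#2 and 3 with shScramble. The well-ranked region at its end, with an authors' p of 0.00314 with shCHD4#1, 3.2e-05 with shCHD4#2 and 0.000118 with shScramble, lay outside the gene and covered a start of DNAJC16. CASP6, an executioner, had 5 regions with shCHD4#1, 2 with shCHD4#2 and 4 with shScramble, and the promoter window of its RefSeq start, which lies inside the annotated gene span, was covered with shCHD4#1 and shScramble and not with shCHD4#2. CASP2 had 3 regions with shCHD4#1, 6 with shCHD4#2 and 6 with shScramble, and an end was covered in all but the shCHD4#1 list. The hairpins thus lay on different sides of shScramble at CASP6 and CASP9, and at CASP2 only shCHD4#1 differed from it.

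The apoptosome genes had no shared direction. APAF1, its scaffold (chromosome 12, 98645290 to 98735433), had 5 regions with shCHD4#1, 3 with shCHD4#2 and 4 with shScramble. The best region over its promoter window had an authors' p of 0.210 with shCHD4#1, 0.00883 with shCHD4#2 and 0.951 with shScramble, and the region also covered a start of IKBIP. The shScramble region reached only the edge of that window, 250 bp before the start. The value 0.951 recurs at other shScramble regions here, such as those at MCL1, BMF, CASP8 and CASP9, so it does not order them. The second deposited score of these APAF1 regions, of no stated unit and shared by neighbouring regions, was 660 with shCHD4#1, 1130 with shCHD4#2 and 1290 with shScramble. CYCS, which encodes cytochrome c (chromosome 7, 25118656 to 25125260), had 3 regions with shCHD4#1, 2 with shCHD4#2 and 3 with shScramble. Its start had the best authors' p of any end among the 31 genes in every list: 1.03e-06 with shCHD4#1, 1.56e-06 with shCHD4#2 and 8.73e-06 with shScramble.

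Genes of proteins released from mitochondria had more regions with shCHD4#2 at all 3 loci, beside 30.7% of all genes, and with shCHD4#1 at 1, beside 51.2%. With regions joined, DIABLO had 2 in every list. DIABLO, which encodes SMAC, an antagonist of the inhibitors of apoptosis (chromosome 12, 122207662 to 122227456), had 3 regions with shCHD4#1, 3 with shCHD4#2 and 2 with shScramble. Its upper end was covered with both hairpins only, but the shScramble region, at 122225141 to 122226430, stopped 1026 bp short of it, and the windows of RefSeq starts at 122225771 and 122226052 were covered in all 3 lists. The window of a further start, at 122226568, was covered with both hairpins only. HTRA2, a serine protease, had 3 regions with shCHD4#1, 5 with shCHD4#2 and 3 with shScramble. The region at its RefSeq start at 74529933 had an authors' p of 0.170 with shCHD4#1, 0.000542 with shCHD4#2 and 0.0548 with shScramble, and covered a start of AUP1 too. ENDOG, a mitochondrial nuclease (chromosome 9, 128818500 to 128822676), had 3 regions with shCHD4#1, 5 with shCHD4#2 and 4 with shScramble. Its promoter window was covered in every list, by a region with an authors' p of 0.00184 with shCHD4#1, 0.00183 with shCHD4#2 and 0.951 with shScramble. The better-ranked shScramble region within 1 kb of its start had an authors' p of 0.197 and lay inside the gene. The 0.951 is the recurring value met at APAF1. The second score of the regions over the ENDOG window was 985 with shCHD4#1, 1286 with shCHD4#2 and 976 with shScramble.

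Among the inhibitor of apoptosis genes, BIRC5 and BIRC3 had more regions with both hairpins, that is 2 of 4, beside 25.2% of all genes. BIRC5, which encodes survivin, a protein of dividing cells that serves both mitosis and survival (chromosome 17, 78214253 to 78225635), had 2 regions with shCHD4#1, 2 with shCHD4#2 and 0 with shScramble. With shCHD4#1 they lay at 78212381 to 78213730, which is 523 bp outside the lower end of the gene, and at 78214471 to 78217460 within it. With shCHD4#2 they lay at 78213271 to 78213870 and 78213871 to 78214430, and the second of these covered the lower end, with an authors' p of 0.0439. The first had an authors' p of 0.193, and the shCHD4#1 regions had 0.231 and 0.536. The regions of both hairpins overlapped each other outside the gene and not within it.

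BIRC3, which encodes the ubiquitin ligase cIAP2 (chromosome 11, 102317484 to 102339403), had 3 regions with shCHD4#1, 3 with shCHD4#2 and 2 with shScramble. At its start the shScramble region began 217 bp inside the gene, while the regions with shCHD4#1 (102317101 to 102318550) and shCHD4#2 (102317111 to 102318180) also covered the printed window. The 3 lists thus had a region in nearly the same place, and the hairpin lists extended it over the start. BIRC2, its neighbour, which encodes cIAP1, had 5 regions with shCHD4#1, 3 with shCHD4#2 and 4 with shScramble, and the loci of BIRC2 and BIRC3 share 1 region in each list. BIRC6, a giant ubiquitin-conjugating protein and at 262 kb the longest of these genes, had 4 regions in every list.

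In the death receptor arm, TNFRSF10A and FADD had more regions with both hairpins, CFLAR had fewer, and the ligand genes had none or few. More regions were thus found at 2 of 5 genes, beside 25.2% of all genes, and fewer at 1, beside 13.0%. TNFRSF10A, which encodes the TRAIL receptor DR4 (chromosome 8, 23190452 to 23225102), had 2 regions with shCHD4#1, 1 with shCHD4#2 and 0 with shScramble. The region listed with both hairpins lay inside the gene, at 23208481 to 23210040 with shCHD4#1 and 23209071 to 23209700 with shCHD4#2, with an authors' p of 0.193 with shCHD4#1 and 0.672 with shCHD4#2. Neither end of the gene was covered in any list. FADD, the adaptor that joins receptors to caspase 8 (chromosome 11, 70203296 to 70207390), had 2 regions with shCHD4#1, 2 with shCHD4#2 and 1 with shScramble. The region over its start ran from 70202461 to 70203400 with shCHD4#1 and from 70202201 to 70203410 with shCHD4#2, and the shScramble region began 575 bp inside the gene.

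CFLAR, which encodes FLIP, the decoy that blocks caspase 8 (chromosome 2, 201116164 to 201176687), had 6 regions with shCHD4#1, 5 with shCHD4#2 and 7 with shScramble. Regions at 201126071 to 201127790 (authors' p 0.696) and 201159871 to 201161100 (authors' p 0.609) were listed with shScramble and overlapped by neither hairpin. A region near 201152361 was listed with both hairpins and not with shScramble, at an authors' p of 0.727 with shCHD4#1 and 0.662 with shCHD4#2. The window of the first RefSeq start was covered in every list, with an authors' p of 0.00571 with shCHD4#1, 0.0235 with shCHD4#2 and 0.00604 with shScramble. TNFSF10, which encodes TRAIL, had 0 regions in all 3 lists. FASLG, the FAS ligand gene of activated lymphocytes, had 2 regions with shCHD4#1, 1 with shCHD4#2 and 2 with shScramble, none of them within 1 kb of a gene end.

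Coverage of gene ends, that is a region within 1 kb of either end, was high in all lists and somewhat higher with the hairpins. An end was covered at 24 of 31 genes with shCHD4#1, 24 with shCHD4#2 and 21 with shScramble, beside 73.0% of all genes with shCHD4#1, 68.4% with shCHD4#2 and 64.8% with shScramble. At 19 genes it was covered in every list, beside 59.1% of all genes, and at 5 in none, beside 22.9%. BIK, BIRC5 and DIABLO had a region at an end in both hairpin lists and in none of shScramble, which is 9.68% of the genes (3.35 to 24.9) beside 6.65% of all genes. None had the reverse, beside 1.43% of all genes.

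Fewer ends were covered by well-ranked regions. With an authors' p of at most 0.05, an end was covered at 10 genes with shCHD4#1 (32.3%), 13 with shCHD4#2 (41.9%) and 6 with shScramble (19.4%), beside 27.7% of all genes with shCHD4#1, 29.5% with shCHD4#2 and 22.8% with shScramble. The 6 genes with shScramble, which were BAD, BAK1, BMF, CASP9, CYCS and CFLAR, had such an end in all 3 lists, beside 16.6% of all genes. DIABLO, ENDOG and MCL1 had it with both hairpins only, beside 5.72% of all genes, and 0 genes had it with shScramble only, beside 2.02%. At DIABLO a shScramble region with an authors' p of 0.00052 stopped 1026 bp short of the end. The hairpin regions within 1 kb of that end had 0.000451 with shCHD4#1 and 0.000435 with shCHD4#2. ENDOG and MCL1 had a covered end in the shScramble list too, by regions ranked lower there, and the authors' p ranks a region within its own list, so these are not measured changes in accessibility.

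**Figure D4:**
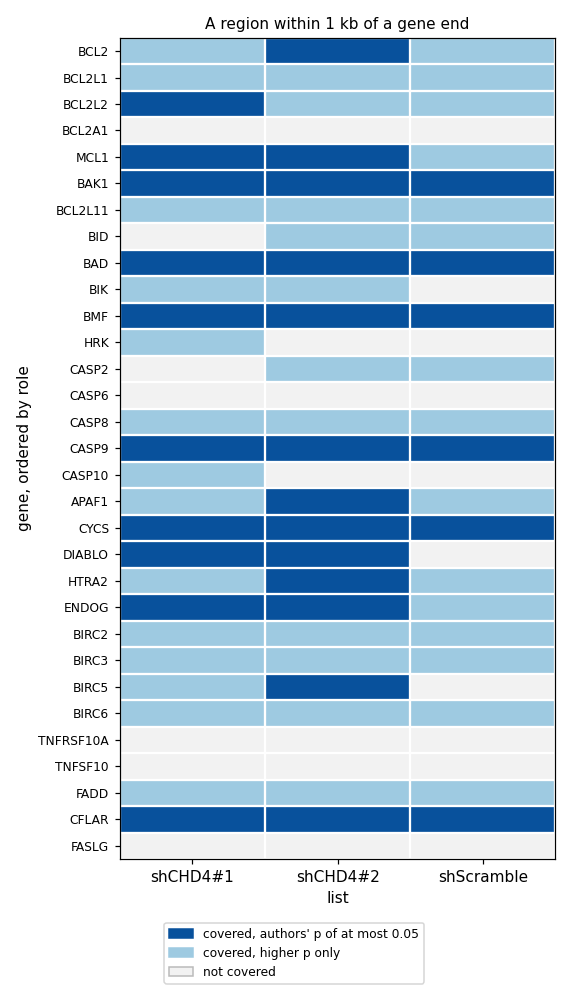
Coverage of either gene end within 1 kb for the 31 genes (rows, ordered by role) in each list (columns), in 3 shades for not covered, covered only at an authors' p above 0.05, and covered at a p of at most 0.05. The darkest shade fills 10 genes with shCHD4#1, 13 with shCHD4#2 and 6 with shScramble.

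The regions themselves were also compared between the lists, by any overlap. Of 142 different regions with shCHD4#1, 27 (19%, 13.4 to 26.3) overlapped a shCHD4#2 region and no shScramble region, beside 14.1% of that whole list. Another 27 (19%) overlapped neither other list, beside 30.8% of that list, and 74 (52.1%, 43.9 to 60.2) overlapped both, beside 40%. The share in the shCHD4#1 list alone thus lay below that of the whole list, and the share in all 3 lists above it. Neither difference was tested, and the whole list, unlike these regions, is not limited to gene loci. Of 117 with shCHD4#2, 29 (24.8%, 17.8 to 33.3) overlapped a shCHD4#1 region and no shScramble region, beside 21.9% of that list. Of the same 117, 72 (61.5%) overlapped both other lists, beside 61.3%, and 10 (8.55%) overlapped neither, beside 8.54%. Of 106 with shScramble, 16 (15.1%, 9.51 to 23.1) overlapped no region of either hairpin, beside 16.1% of that list. Another 72 (67.9%) overlapped regions of both hairpins, beside 57.7%. The median width was 1370 bp with shCHD4#1, 1210 bp with shCHD4#2 and 1410 bp with shScramble, beside 1390 bp over the whole list of shCHD4#1, 1040 bp of shCHD4#2 and 1450 bp of shScramble. Bases covered, summed over the 31 loci, were 232526 with shCHD4#1, 167268 with shCHD4#2 and 173571 with shScramble, so with shCHD4#2 more regions covered slightly fewer bases. In 16 of the 31 loci another protein-coding gene was annotated, and its regions cannot be told apart from those of the apoptosis gene.

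A further list of 32 apoptosis genes, such as death-domain adaptors and mitochondrial channels, had shares nearer to those of all genes; whether the 2 apoptosis lists differ was not tested. Of these, 9 (28.1%, 15.6 to 45.4) had more regions with both hairpins, beside the 25.2% of all genes, and 5 (15.6%, 6.86 to 31.8) had fewer, beside the 13.0%. The highest ratios were at TNFRSF25, a death receptor (6 regions with shCHD4#1, 4 with shCHD4#2 and 1 with shScramble), and at BNIP3, a mitophagy receptor induced by hypoxia (4 with each hairpin and 1 with shScramble). BOK, a relative of BAK1, followed with 6 regions with shCHD4#1, 4 with shCHD4#2 and 2 with shScramble. The lowest ratios were at the TRAIL decoy receptor gene TNFRSF10D (0 with each hairpin and 2 with shScramble) and the inhibitor of apoptosis gene BIRC7 (1 with shCHD4#1, 0 with shCHD4#2 and 2 with shScramble). Next were BCL2L13 (5 with shCHD4#1, 4 with shCHD4#2 and 9 with shScramble) and the mitochondrial protease gene OMA1 (2 with each hairpin and 4 with shScramble). BNIP3 and MOAP1, a modulator of BAX, had an end covered with both hairpins only, and 0 genes had one with shScramble only. The loci of BCL2L13 and BID overlap, and both had fewer regions with both hairpins. The shScramble regions at 17727881 to 17730130 and 17730131 to 17730990 were counted for both genes, so these are not separate observations.

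**Figure D5:**
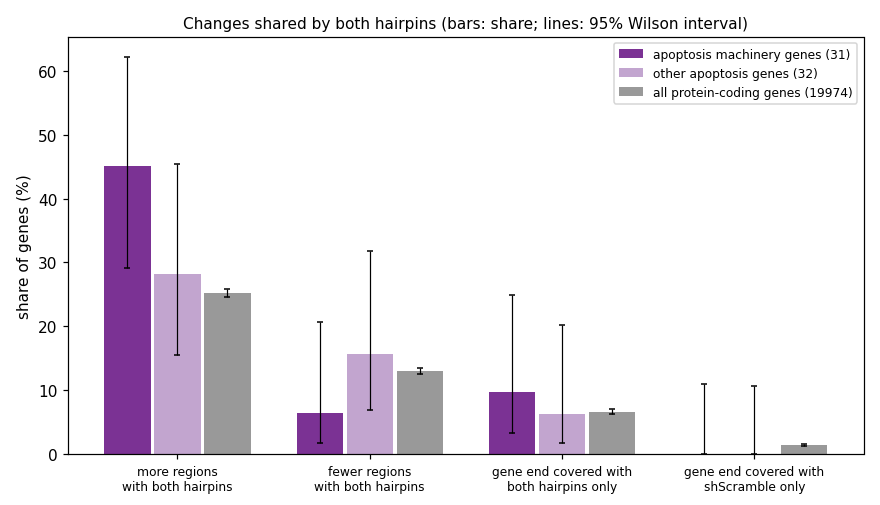
Share of genes (vertical axis, percent) with more or fewer regions in both hairpin lists relative to shScramble, and with a gene end covered with both hairpins only or with shScramble only, for 31 apoptosis machinery genes, 32 other apoptosis genes and all 19974 protein-coding genes; lines are 95% Wilson intervals. The first bar of the 31 genes, 45.2%, lies above the 28.1% of the other apoptosis genes and the 25.2% of all genes, and the 2 shorter lists have overlapping intervals.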

How the data were processed

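ATAC-seq libraries of 9 SK-N-MC samples are summarised in 3 deposited region lists, treated as 1 combined list per group, which is an inference: they are filed under replicate 1 and named after ChIP-R, a program that combines replicate lists. Tools named in the submitters' processing notes are deepTools 3.2.1, SAMtools 1.9, BWA, FastQC 0.11.7 and Trimmomatic 0.36, with builds GRCh38 and dm6. Per the labels, 100 Drosophila S2 cells were added to 100000 SK-N-MC cells. No peak caller, Tn5 shift or spike-in scaling is given in the sources used here; scaling could change how many regions a list holds. The deposited lists give each region 2 scores of no stated unit, a p-value and a q-value, all the authors'; the lists are sorted by that p-value, and it orders or selects regions within their own list. Where p-values of 1 place in the 3 lists stand side by side, they show its rank in each list and are no measure of a change.

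Regions on chromosomes 1 to 22 and X were counted per locus with an overlap of at least 1 bp, in Python 3.11.15 with pandas 2.3.3. Genes and promoter sequences are from RefSeq (GRCh38.p14), matched by symbol: 31 of 31 genes and 25 of 31 with a promoter. Counting was checked on simulated regions. Wilson intervals are at 95% and cover counting error only. Depth is unknown, so precision beyond that is too. The members and lists were chosen with earlier results of these data known. All 31 genes are reported; other apoptosis genes are named where a gene end differs between shScramble and both hairpins or among the 4 with the highest or lowest mean ratio, of which 1 is not reported here. The alternatives were stricter or equal lists, other flanks, windows and overlaps, bases in place of regions, and 0.5 in place of 1 added. Exon and intron classes are not analysed here.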

Additional observations from a re-analysis of the deposited data

How the results depend on the processing

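Of 62 values under alternative settings, 49 stayed within 1.5 times the reported number or, for medians, within the binomial interval of the reported median (0 to 0.585 with shCHD4#1, 0 to 0.415 with shCHD4#2); 13 did not and 0 reversed. Both intervals reach 0, so a median of 0 counts as within them, and every median counted as within. The 13 that did not were all numbers of genes, and only a median could have counted as reversed. The median with shCHD4#1, 0.32 as reported, was 0 with the p limit, the q limit, equal list length, 20000 regions and regions joined. The median with shCHD4#2, 0.19 as reported, was 0 with the p limit, the q limit, 20000 regions, a flank of 50 kb and regions joined. The number of apoptosis genes with more regions with both hairpins, 14 as reported, was 5 with an authors' p of at most 0.05 (16.1%, beside 10.4% of all genes) and 1 with a q of at most 0.05 (3.23%, beside 1.79%). It was 4 with 20000 regions per list taken by rank (12.9%, beside 11%) and, in an alternative chosen after seeing the data, 8 with regions joined (25.8%, beside 22%). The genes changed as well. With the q limit BMF alone had more, and with 20000 regions BCL2, BCL2L2, ENDOG and MCL1 did. Of these, BMF, ENDOG and MCL1 are not among the 14. BCL2L11, which is among the 14, had fewer regions with both hairpins under the p limit. The number with fewer, 2 as reported, was 0 with a q of at most 0.05 (beside 1.56% of all genes), 5 with equal list length (16.1%, beside 21.4%) and 4 by bases covered (12.9%, beside 23.1%). With a flank of 50 kb it was 5, and the share then lay above that of all genes (16.1%, beside 12%), as it did with the p limit (6.45%, beside 5.96%). The number with an end covered with both hairpins only, 3 as reported, was 0 with a q of at most 0.05, 6 when at least 50% of a region had to lie in the window, 6 with a window of 250 bp, 1 with a window of 2 kb and 1 at gene starts only. Smaller sets of regions left fewer to compare by construction; the cause of the other shifts was not tested. The number with an end covered with shScramble only was 0 under each of these settings. No paired analysis was possible because the lists carry no replicate numbers and there is 1 per group, and no replicate could be left out. Read depth is unknown, which limits each of these comparisons.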
